A study of Mus musculus with 160 samples.

Results

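The livers of 8 male mice fed the Vegan diet were compared with the livers of 8 male mice fed the American diet, which makes 16 of the 160 libraries of the study and 16 of its 32 liver libraries. They were chosen by the labels alone. The study fed mouse versions of 4 human diets to 4 inbred strains and sequenced polyA RNA from 5 metabolic tissues. Each diet was given to 2 mice of each strain, which were SJL, DBA/2J, A/J and C57BL/6J. All were kept on chow until 12 weeks of age, then ate their diet for 6 weeks, and the livers were taken at 18 weeks. Per the labels, the diets matched in calories and macronutrients and differed in where the nutrients came from, so what is compared is food source. The labels do not list the ingredients, and chow-fed mice were not analysed here. In the text, Vegan mice carry the numbers 13 and 16 (C57BL/6J), 30 and 32 (A/J), 45 and 48 (DBA/2J), and 63 and 64 (SJL). American mice carry the numbers 1 and 2 (C57BL/6J), 17 and 18 (A/J), 33 and 34 (DBA/2J), and 49 and 50 (SJL).

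The liver adjusts its transcription to what the gut delivers. When sterol in the endoplasmic reticulum is low, the transcription factor SREBP-2 is released and raises the genes of cholesterol synthesis and uptake, and SREBP-1c does the same for fat synthesis under insulin. The nuclear receptors PXR and CAR sense plant and other foreign compounds as well as bile acids, and raise detoxifying cytochromes P450 such as Cyp3a11. The liver also breaks down amino acids, disposes of their nitrogen through the urea cycle, and handles methionine and methyl groups. Enzymes of these pathways are known to follow protein and choline supply.

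Library totals lay between 18.6 M and 28.4 M counts in Vegan livers (median 22.7 M) and between 21.0 M and 29.0 M in American livers (median 23.5 M). The 10 hepatocyte markers were all present, with a summed unscaled level of 89910 to 160700 CPM (counts scaled to library size) in Vegan livers and 90160 to 148700 CPM in American livers. Skeletal muscle markers, which liver should lack, summed to at most 1383 CPM in Vegan livers (SJL mouse 63) and at most 643 CPM in American livers (A/J mouse 18). In SJL they were at 1380 and 677 CPM in Vegan livers and 154 and 91.5 CPM in American livers, with all 8 markers higher in mean and a median log2 difference of 3.04. Their part in the other SJL values was not tested.

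The liver of C57BL/6J Vegan mouse 16 was nearly identical to that of C57BL/6J American mouse 1. Over 13519 genes with a summed count of at least 50, the median chi-square of their counts (1 degree of freedom) was 0.694, where counting noise alone gives 0.455, and 0.311% of the genes differed by more than 2-fold. Among the 496 pairs that 32 livers form, the next closest pair reached 1.79, and the 16 pairs of the same strain and diet spanned 2.07 to 11.6. Among the Vegan and American livers these also had the highest levels of Saa1, an acute phase protein, with 2050 CPM in Vegan mouse 16 and 2120 CPM in American mouse 1, while the other C57BL/6J livers had 22.8 CPM (Vegan mouse 13) and 39.7 CPM (American mouse 2). The labels put them in opposite diets, and whether 1 of them is mislabelled, or both come from the same tissue, cannot be told from the files. The count of genes, the list medians over all strains and the adjusted p of genes named over all strains are therefore given with all livers and, as an alternative chosen after seeing the data, without this pair.

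**Figure D1:**
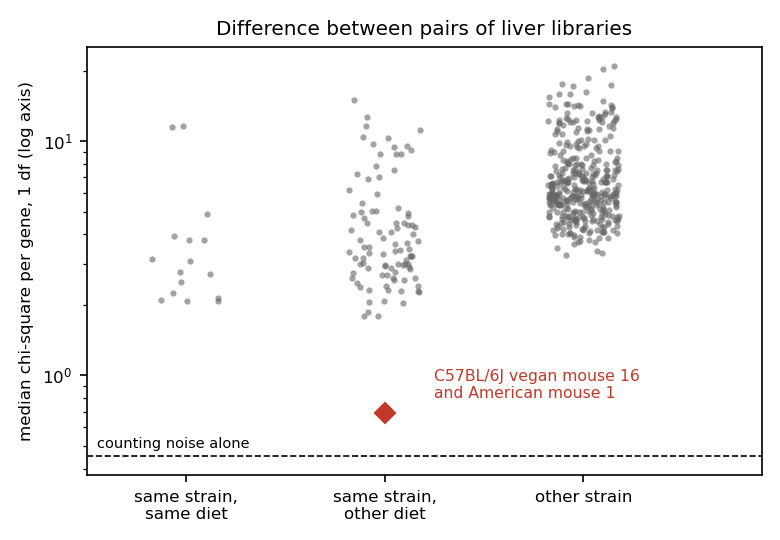
Median per-gene chi-square (log axis) for each of the 496 pairs of liver libraries, by whether the pair shares strain and diet, with each point 1 pair and the dashed line at the 0.455 that counting noise alone gives. The pair of C57BL/6J Vegan mouse 16 and American mouse 1 sits at 0.694, under every other pair.

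With strain as a covariate, 21 of 18636 genes differed between the diets (0.113%), 8 of them higher on the Vegan diet (0.0429%) and 13 lower (0.0698%). The test was edgeR's quasi-likelihood test with Benjamini-Hochberg adjustment at 0.05, and 2323 genes (12.5%) had an unadjusted p under 0.05. Without the near-identical pair 101 genes passed (0.542%), 32 higher (0.172%) and 69 lower (0.37%), and all 21 were among them. DESeq2 called 116 genes with all livers, and 19 of the 21 were among them. The count also depended on single livers, and ranged from 4 without DBA/2J American mouse 34 to 169 without C57BL/6J Vegan mouse 16. The main fits used all 32 livers, so their p-values measure the spread between mice of all 4 diets, 2 in each strain and diet. With strain as a covariate, differences between strains in the effect of a diet are part of that spread. In whole liver, fewer cells of a type and less RNA per cell cannot be told apart.

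**Figure D2:**
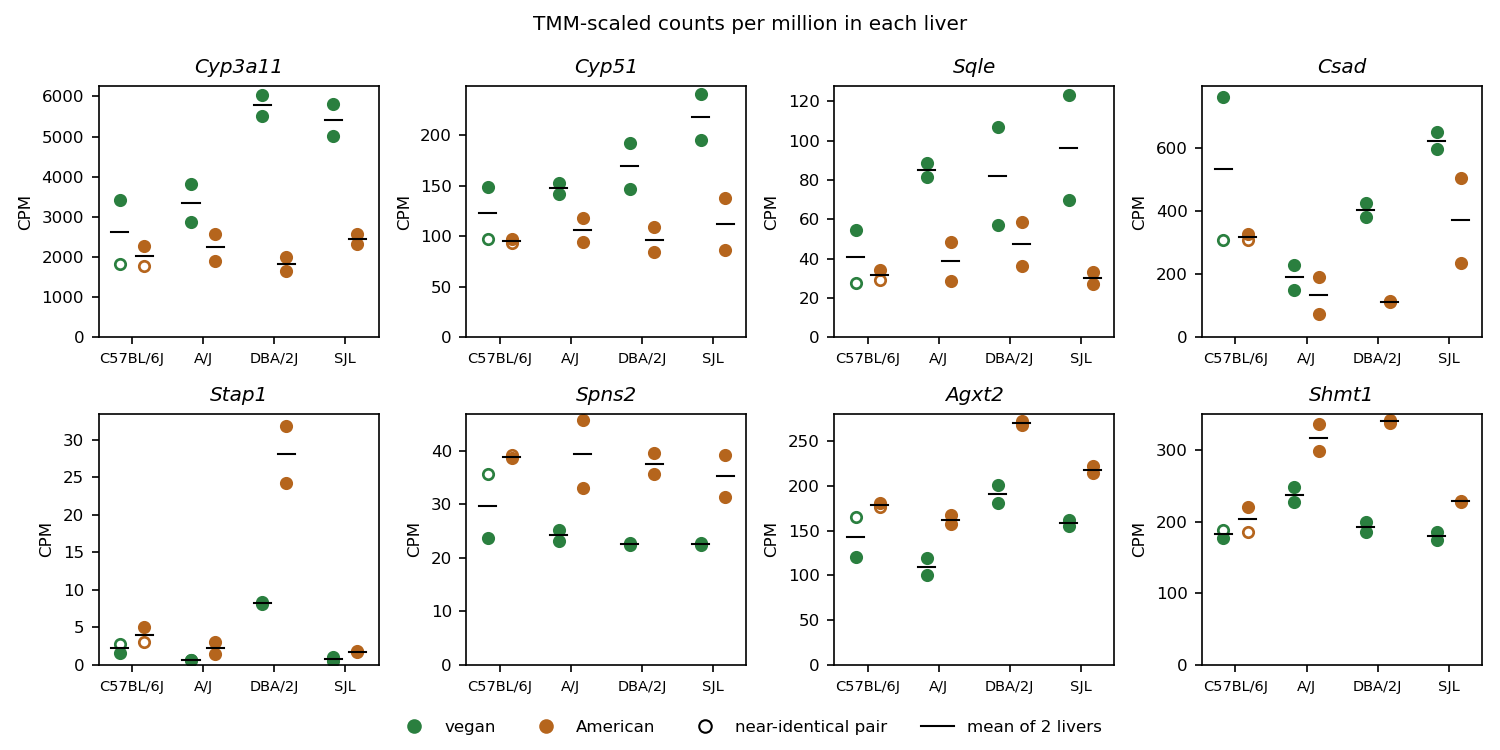
TMM-scaled CPM of 8 genes in each liver, with Vegan livers in green on the left and American livers in brown on the right within each strain, bars at the mean of 2 livers, and open circles for the near-identical pair. In A/J, DBA/2J and SJL the Vegan livers lie above the American livers for Cyp3a11 and Cyp51 and under them for Stap1, Spns2, Agxt2 and Shmt1.

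Cyp3a11, the main PXR-controlled cytochrome P450 of mouse liver, was the most abundant gene that rose. Vegan livers had 3420 and 1820 CPM in C57BL/6J, 2880 and 3810 CPM in A/J, 6040 and 5510 CPM in DBA/2J, and 5020 and 5810 CPM in SJL. American livers had 1780 and 2260 CPM in C57BL/6J, 2570 and 1910 CPM in A/J, 1640 and 2000 CPM in DBA/2J, and 2580 and 2330 CPM in SJL. Every Vegan liver lay above every American liver except that of mouse 16, a member of the near-identical pair. The Vegan mean was 4288 ± 1535 CPM and the American mean 2134 ± 355 CPM (SD, n = 8 each), a log2 difference of 0.95 ± 0.17 (SE; adjusted p = 0.0146, edgeR). Without the pair it was 1.05 ± 0.17 (adjusted p = 0.00187). The difference passed in all but 1 of the fits that left out 1 liver, the exception being DBA/2J American mouse 34 (adjusted p = 0.0613).

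The rise was largest in DBA/2J, at 1.67 ± 0.33 on the log2 scale (adjusted p = 0.0385 within that strain, edgeR). The unadjusted p for a difference between strains was 0.0415 and no gene passed that test after adjustment, so the larger size in DBA/2J is not established. Reads of the Cyp3a genes are shared among close paralogs, and part of each value may belong to a neighbour.

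The promoter of Cyp3a11 in the RefSeq table (GRCm38.p6) holds both of the letter runs searched as candidates for nuclear receptor binding, AGGTCA and TGAACT, on either strand. The 180 bases shown are chr5:145879855-145880034 on the minus strand and end at the transcript start, with both runs in capitals.
Cyp3a11: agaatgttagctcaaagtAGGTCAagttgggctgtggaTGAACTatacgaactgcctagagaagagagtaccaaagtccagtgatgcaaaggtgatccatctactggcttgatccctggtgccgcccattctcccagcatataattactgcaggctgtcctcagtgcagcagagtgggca
Over the 250 bases before the start, AGGTCA was found for 15.8% of 27025 gene symbols, TGAACT for 13.4% and both for 1.94%. A match of letters is a description and shows no binding.

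Of the 26 tested PXR and CAR targets, 18 had a higher and 8 a lower mean on the Vegan diet, where 48.3% of all genes tested were higher. Cyp3a11 alone passed with all livers, against 0.113% of all genes. An unadjusted p under 0.05 was found for 8 members in the higher direction (6.64% of all genes) and 2 in the lower (5.83%). The median log2 difference over the list was 0.22 (0.24 without the near-identical pair), beside 0.01 over all genes. By strain the medians were 0.34 in A/J, 0.02 in DBA/2J, 0.41 in SJL and 0.06 in C57BL/6J, where Vegan mouse 13 against American mouse 2 gave 0.235. DBA/2J thus had the largest difference in Cyp3a11 and a list median near 0. Without the pair, 3 members passed (0.542% of all genes), all higher (0.172%). Beside Cyp3a11 they were Cyp3a16 (adjusted p = 0.0325, edgeR) and Cyp3a41a (adjusted p = 0.0391). Both were at low levels in most of these male livers. Cyp3a16 had 0.210 to 2.07 CPM in Vegan livers and 0.182 to 0.553 CPM in American livers. For Cyp3a41a the difference rested on 1 liver, Vegan DBA/2J mouse 45 with 9.99 CPM, while the other Vegan livers had at most 0.64 CPM and American livers at most 0.206 CPM. Ces2a, a carboxylesterase of the same list, had a median of 360 CPM in Vegan livers and 284 CPM in American livers and did not pass (adjusted p = 0.249; 0.182 without the pair).

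Cholesterol synthesis genes were higher on the Vegan diet in most comparisons of means, though none of the 20 passed with all livers. Of these 20, 19 had a higher mean, 11 were higher in all 4 strains and 17 were higher in each of A/J, DBA/2J and SJL, where 48.3%, 10.4% and 19.0% of all genes tested were. An unadjusted p under 0.05 in the higher direction was found for 11 members with all livers (6.64% of all genes) and for 15 without the near-identical pair (7.23% of all genes). The median log2 difference was 0.40 with all livers and 0.45 without the pair, beside 0.01 over all genes in both fits. By strain it was 0.90 in SJL, 0.50 in DBA/2J, 0.28 in A/J and 0.04 in C57BL/6J. The value for C57BL/6J was 0.03 when Vegan mouse 13 was set against American mouse 2, so that strain was near 0 with and without the pair. Summed over the list, Vegan livers had 2158 to 4132 CPM (median 2929) and American livers 2130 to 3109 CPM (median 2172), so the groups overlapped.

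Cyp51, the lanosterol demethylase, passed once the near-identical pair was left out. Vegan livers had 149 and 97.6 CPM in C57BL/6J, 142 and 153 CPM in A/J, 147 and 192 CPM in DBA/2J, and 241 and 195 CPM in SJL. American livers had 93.5 and 97.3 CPM in C57BL/6J, 118 and 94.1 CPM in A/J, 109 and 84.1 CPM in DBA/2J, and 138 and 86.3 CPM in SJL. Both Vegan livers lay above both American livers in every strain, by a narrow margin in C57BL/6J. The log2 difference was 0.65 ± 0.14 with all livers (adjusted p = 0.0563, edgeR) and 0.73 ± 0.15 without the pair (adjusted p = 0.0258).

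Sqle, squalene epoxidase, a rate-limiting step after squalene, had 27.5 to 123 CPM in Vegan livers (median 75.7) and 26.9 to 58.5 CPM in American livers (median 33.6). The groups overlapped through the C57BL/6J and DBA/2J livers. Its log2 difference was 0.97 ± 0.24 with all livers (adjusted p = 0.086, edgeR) and 1.10 ± 0.25 without the pair (adjusted p = 0.0417). Fdft1, squalene synthase, was separated within every strain and did not pass, with a log2 difference of 0.49 ± 0.14 (adjusted p = 0.148; 0.11 without the pair). Its margin in C57BL/6J was narrow, with 85.4 and 86.3 CPM in Vegan livers and 82.4 and 77.4 CPM in American livers. Mvk, mevalonate kinase, did not pass either, with 0.50 ± 0.15 (adjusted p = 0.164; 0.128 without the pair). Outside the pathway itself, Srebf2, which encodes SREBP-2, had a median of 64.1 CPM in Vegan livers and 55.1 CPM in American livers (adjusted p = 0.195; 0.12 without the pair). The 13 tested genes of sterol uptake and SREBP-2 control had a median log2 difference of 0.10 (0.12 without the pair), with 9 higher and 4 lower and none past the test.

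**Figure D3:**
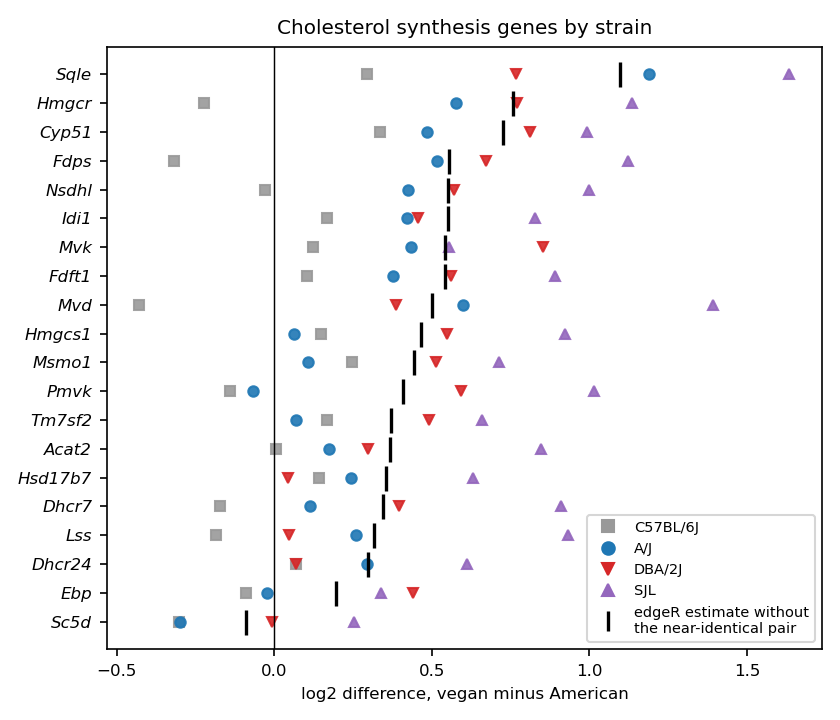
Log2 difference of mean CPM, Vegan minus American, for each of the 20 cholesterol synthesis genes in each strain (symbols), with the edgeR estimate without the near-identical pair as a black bar. SJL points lie furthest to the right for most genes, and the C57BL/6J points lie on both sides of 0.

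Promoters of this list share the letters CCAAT, bound by NF-Y, which is known to act together with SREBP-2. CCAAT, or ATTGG on the other strand, was found in the 250 bases before the start for 14 of the 15 list symbols that the RefSeq table (GRCm38.p6) holds (93.3%) and for 37.5% of 27025 symbols in all. For comparison, AGGTCA was found for 2 of the 15. The 150 bases before the start are printed for Cyp51, which passed without the pair, and for Mvk, Msmo1 and Hmgcs1 as examples with 4, 2 and 1 matches, with CCAAT and ATTGG in capitals. They are chr5:4104698-4104847 on the minus strand for Cyp51, chr5:114444119-114444268 on the plus strand for Mvk, chr8:64733579-64733728 on the minus strand for Msmo1 and chr13:119690201-119690350 on the plus strand for Hmgcs1.
Cyp51: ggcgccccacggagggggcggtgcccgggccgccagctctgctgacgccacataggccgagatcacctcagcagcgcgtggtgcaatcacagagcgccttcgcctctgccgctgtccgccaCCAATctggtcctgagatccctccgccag
Mvk: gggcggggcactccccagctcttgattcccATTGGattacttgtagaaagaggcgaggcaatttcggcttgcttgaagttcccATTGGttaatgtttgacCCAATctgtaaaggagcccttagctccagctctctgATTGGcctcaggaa
Msmo1: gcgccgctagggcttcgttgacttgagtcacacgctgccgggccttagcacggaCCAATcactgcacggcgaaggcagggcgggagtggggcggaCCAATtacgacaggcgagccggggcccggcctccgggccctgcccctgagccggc
Hmgcs1: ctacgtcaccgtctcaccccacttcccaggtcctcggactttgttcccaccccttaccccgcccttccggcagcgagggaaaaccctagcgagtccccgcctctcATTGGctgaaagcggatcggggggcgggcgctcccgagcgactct
Mvk encodes mevalonate kinase, Msmo1 a sterol demethylating oxidase and Hmgcs1 the cytosolic HMG-CoA synthase. The match shows the letters in these windows and no factor was measured.

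More genes of amino acid and methyl group metabolism had a lower than a higher mean on the Vegan diet. Of 38 urea cycle and amino acid breakdown genes, 33 had a lower mean, 15 were lower in all 4 strains and none was higher in all 4, where 51.7% of all genes had a lower mean and 11.5% were lower in all 4. The median log2 difference was -0.13 (-0.14 without the near-identical pair), and none passed with all livers. An unadjusted p under 0.05 in the lower direction was found for 11 members with all livers and 12 without the pair (6.61% of all genes). Hibch, an enzyme of valine breakdown, passed without the pair. It had 50.4 to 81.4 CPM in Vegan livers (median 65.0) and 68.3 to 90.3 CPM in American livers (median 83.7), with overlapping groups. Its log2 difference was -0.33 ± 0.08 (adjusted p = 0.0852, edgeR) and -0.37 ± 0.09 without the pair (adjusted p = 0.0417). Kynu, kynureninase of tryptophan breakdown, and Otc, the urea cycle's ornithine transcarbamylase, were separated within every strain, by narrow margins in C57BL/6J. Neither passed, with adjusted p = 0.151 for Kynu and 0.217 for Otc (edgeR; 0.116 and 0.153 without the pair).

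Agxt2, a mitochondrial aminotransferase that breaks down beta-aminoisobutyrate, is outside that list and fell. Vegan livers had 121 and 165 CPM in C57BL/6J, 99.9 and 119 CPM in A/J, 201 and 181 CPM in DBA/2J, and 162 and 155 CPM in SJL. American livers had 176 and 181 CPM in C57BL/6J, 157 and 167 CPM in A/J, 268 and 272 CPM in DBA/2J, and 214 and 222 CPM in SJL. Within every strain both Vegan livers lay under both American livers, while levels differed between strains enough for the groups to overlap. The log2 difference was -0.46 ± 0.09 (adjusted p = 0.0178, edgeR) and -0.52 ± 0.08 without the pair (adjusted p = 0.0021).

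Of 20 genes of methionine and methyl group metabolism, 14 had a lower and 6 a higher mean on the Vegan diet, with a median log2 difference of -0.09 (-0.10 without the near-identical pair). None passed with all livers, and 5 passed without the pair (0.542% of all genes), 4 of them lower (0.37%) and 1 higher (0.172%). Shmt1, which moves 1-carbon units from serine to folate, had 174 to 248 CPM in Vegan livers (median 187) and 186 to 342 CPM in American livers (median 264). Its log2 difference was -0.50 ± 0.10 without the pair (adjusted p = 0.0225), and -0.43 ± 0.10 with all livers (adjusted p = 0.0563). In DBA/2J, Vegan livers had 186 and 199 CPM and American livers 342 and 338 CPM, and Shmt1 passed within that strain with all livers (adjusted p = 0.031, edgeR).

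Cth, the last enzyme of the route from methionine to cysteine, had 172 to 317 CPM in Vegan livers and 220 to 363 CPM in American livers (without the pair adjusted p = 0.036, edgeR). Dmgdh, which demethylates dimethylglycine, had 338 to 676 CPM in Vegan livers and 500 to 949 CPM in American livers (without the pair adjusted p = 0.0163). Both were separated within every strain, by narrow margins in C57BL/6J. Bhmt, which makes methionine from homocysteine and betaine, had 1077 to 4642 CPM in Vegan livers and 1563 to 7988 CPM in American livers (without the pair adjusted p = 0.036), and was separated in A/J, DBA/2J and SJL. Reads of Bhmt may be shared with its near copy Bhmt1b. With all livers the adjusted p values were 0.0691 for Cth, 0.0691 for Dmgdh and 0.152 for Bhmt.

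Csad, which makes the taurine precursor hypotaurine from cysteine sulfinic acid, was the member that was higher. Vegan livers had 763 and 307 CPM in C57BL/6J, 229 and 151 CPM in A/J, 425 and 380 CPM in DBA/2J, and 596 and 652 CPM in SJL. American livers had 307 and 329 CPM in C57BL/6J, 192 and 75.0 CPM in A/J, 115 and 111 CPM in DBA/2J, and 504 and 237 CPM in SJL. The gap was widest in DBA/2J, and the groups overlapped in C57BL/6J and A/J. The log2 difference was 0.93 ± 0.24 with all livers (adjusted p = 0.0996, edgeR) and 1.00 ± 0.23 without the pair (adjusted p = 0.0435).

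Bile acid genes were also lower in mean, in 19 of 21 cases, with a median log2 difference of -0.15 (-0.17 without the near-identical pair) and 7 of them lower in all 4 strains, where 51.7% of all genes had a lower mean and 11.5% were lower in all 4. None passed with all livers, and 5 had an unadjusted p under 0.05 in the lower direction (5.83% of all genes). Akr1d1, the 5-beta-reductase of bile acid synthesis, had a median of 116 CPM in Vegan livers and 174 CPM in American livers and passed without the pair (adjusted p = 0.038, edgeR; 0.115 with all livers). Cyp2c70, which makes mouse muricholic acids, had medians of 345 CPM and 546 CPM in Vegan and American livers and did not pass (adjusted p = 0.182; 0.0586 without the pair).

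Among the other genes that fell, Spns2, the exporter of sphingosine-1-phosphate, had a narrow spread. Vegan livers had 23.6 and 35.6 CPM in C57BL/6J, 23.2 and 25.2 CPM in A/J, 22.4 and 22.8 CPM in DBA/2J, and 22.4 and 22.8 CPM in SJL. American livers had 39.1 and 38.6 CPM in C57BL/6J, 45.7 and 33.1 CPM in A/J, 39.5 and 35.6 CPM in DBA/2J, and 31.3 and 39.2 CPM in SJL. Every Vegan liver but mouse 16 of the near-identical pair lay under every American liver. Without that pair the means were 23.2 ± 1.0 CPM in Vegan livers and 37.6 ± 4.7 CPM in American livers (SD, n = 7 each). The log2 difference was -0.61 ± 0.11 (adjusted p = 0.0174, edgeR) and -0.70 ± 0.11 without the pair (adjusted p = 0.00187).

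Stap1, an adaptor protein downstream of tyrosine kinases, had 0.475 to 8.32 CPM in Vegan livers (median 1.33) and 1.42 to 31.9 CPM in American livers (median 3.07). DBA/2J livers were the highest on both diets, and Vegan livers lay under American livers within every strain. Its log2 difference was -1.41 ± 0.26 (adjusted p = 0.0146, edgeR) and -1.64 ± 0.26 without the near-identical pair (adjusted p = 0.00187). Fmn2, a formin that nucleates actin, had 0.296 to 8.37 CPM in Vegan livers (median 4.87) and 0.897 to 18.8 CPM in American livers (median 9.61). It fell by 1.03 ± 0.19 on the log2 scale (adjusted p = 0.0146; 0.00187 without the pair) and passed whichever of the 16 livers was left out. C57BL/6J was the strain where its groups overlapped, with 0.296 and 1.10 CPM in Vegan livers and 0.955 and 0.897 CPM in American livers.

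Trim7, a ubiquitin ligase, had a median of 11.6 CPM in Vegan livers and 19.8 CPM in American livers (log2 difference -0.74 ± 0.15, adjusted p = 0.0326, edgeR; 0.00311 without the near-identical pair). Appl1, an endosomal adaptor that binds adiponectin receptors, had medians of 13.2 CPM in Vegan livers and 18.4 CPM in American livers (-0.55 ± 0.12, adjusted p = 0.048; 0.0138 without the pair). AW495222 and Gm16170 lie on the opposite strand of another gene named here. AW495222 (chr13:93842603-93855683, GRCm39, minus strand) is annotated inside the span of Dmgdh (chr13:93810207-93895033, plus strand), and had medians of 33.6 CPM in Vegan livers and 47.5 CPM in American livers (adjusted p = 0.0194; 0.00388 without the pair). Gm16170, a long non-coding RNA that overlaps Trim7 on the other strand, did not pass with all livers (adjusted p = 0.0527; 0.0272 without the pair). The libraries were made with a stranded kit, but the sources used here do not give the strand setting of the counting, so reads of such partners cannot be told apart.

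The remaining falls were at low levels or in DBA/2J above all. A4gnt, an N-acetylglucosaminyltransferase, had 1.26 and 4.52 CPM in DBA/2J Vegan livers and 18.6 and 30.1 CPM in DBA/2J American livers, and at most 0.637 CPM in all other livers. The pseudogene Cyp2c53-ps had 0.908 and 0.96 CPM in DBA/2J Vegan livers and 5.48 and 7.99 CPM in DBA/2J American livers, and under 1 CPM elsewhere. ENSMUSG00000093610 is annotated at nearly the same place on chromosome 19 with nearly the same values, so reads of these annotations cannot be told apart. Rnase2a, a secreted ribonuclease, had 1.01 and 0.64 CPM in DBA/2J Vegan livers and 3.91 and 5.1 CPM in DBA/2J American livers. Adarb2, a relative of the RNA editing enzymes, stayed at or under 0.0504 CPM in Vegan livers and at or under 0.49 CPM in American livers. The last of the 13 was Gm57333, a long non-coding RNA with medians of 4.06 CPM in Vegan livers and 6.50 CPM in American livers (adjusted p = 0.042, edgeR; 0.00799 without the near-identical pair). Without the pair the adjusted p was 0.000174 for A4gnt and Cyp2c53-ps, 0.00187 for Rnase2a and 0.0372 for Adarb2.

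Besides Cyp3a11, 7 genes rose. Amigo1, a leucine-rich repeat adhesion protein, had 9.59 to 20.1 CPM in Vegan livers (median 13.6) and 5.72 to 11.6 CPM in American livers (median 8.17), and was separated within every strain (log2 difference 0.71 ± 0.14, adjusted p = 0.0178, edgeR; 0.00955 without the near-identical pair). Igsf8, a membrane partner of tetraspanins, had medians of 11.2 CPM in Vegan livers and 7.49 CPM in American livers (adjusted p = 0.0181; 0.00429 without the pair). Dynll1, a light chain of dynein, had medians of 29.3 CPM in Vegan livers and 16.4 CPM in American livers (adjusted p = 0.0359; 0.0163 without the pair). Vegfb, a growth factor of the VEGF family, and Maoa, monoamine oxidase A, rose by 0.69 ± 0.15 (adjusted p = 0.0424) and 0.72 ± 0.15 (adjusted p = 0.0326) on the log2 scale, and without the pair had adjusted p = 0.0138 for Vegfb and 0.00677 for Maoa. Igsf8, Dynll1, Vegfb and Maoa were separated in A/J, DBA/2J and SJL and overlapped in C57BL/6J. Tmed6, of the p24 family of secretory cargo receptors, was at 0.515 to 1.07 CPM in the Vegan livers of A/J, DBA/2J and SJL and at 0 to 0.277 CPM in their American livers, and at 0 CPM in both C57BL/6J Vegan livers. The mitochondrial tRNA gene mt-Td rested on 2 Vegan livers, C57BL/6J mouse 13 with 4.70 CPM and DBA/2J mouse 45 with 8.63 CPM, while every other liver of both diets had at most 0.364 CPM. Without the pair the adjusted p was 0.00208 for Tmed6 and 0.0109 for mt-Td.

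Agreement between the strains was counted by sign and by separation. A difference of 1 sign in all 4 strains was found for 4086 genes (21.9%), and both Vegan livers lay on the same side of both American livers in every strain for 152 genes (0.816%), 63 higher (0.338%) and 89 lower (0.478%). In A/J, DBA/2J and SJL, 39.1% of genes had 1 sign and 902 were separated (4.84%), 481 higher (2.58%) and 421 lower (2.26%). Fewer strains make both criteria easier to meet. Of the 21 genes that passed, 20 had 1 sign in 4 strains, 9 were separated in 4 strains, and 19 were separated in A/J, DBA/2J and SJL. The test that picked these 21 used the same livers and counts disagreement between strains as spread. Their agreement is therefore partly built in and is no separate support. All 8 Vegan livers lay on the same side of all 8 American livers for 2 genes (0.0107%), Pafah1b3 higher and Gm16170 lower.

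Across the 10180 genes that averaged 5 CPM or more, Spearman's rho between the log2 differences of 2 strains was 0.456 for A/J and SJL, 0.305 for DBA/2J and SJL, and 0.239 for A/J and DBA/2J. With C57BL/6J it was 0.177 for DBA/2J, 0.114 for A/J and -0.004 for SJL. With mouse 13 minus mouse 2 in place of all C57BL/6J livers, the values were 0.178, 0.095 and -0.029 in the same order. These correlations are across genes, which are not independent replicates. The SD of the log2 differences was 0.212 in C57BL/6J, 0.34 in A/J, 0.391 in DBA/2J and 0.306 in SJL over the same genes. In C57BL/6J the near-identical pair lies on opposite diets, which draws the differences of that strain toward 0. Its SD is therefore not comparable with those of the other strains.

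No gene passed the test of a difference between strains in the Vegan effect with edgeR, and 767 genes (4.12%) had an unadjusted p under 0.05. DESeq2 called 5 and limma 0. Without the near-identical pair edgeR again called 0, and over A/J, DBA/2J and SJL alone 0, with 876 genes (4.7%) at an unadjusted p under 0.05. The smallest unadjusted p values among genes of at least 5 CPM belonged to Mup21 (0.000117), Ikbke (0.000228), Cldn1 (0.000839) and Trim24 (0.0011). Mup21, a major urinary protein, had 20.4 and 38.4 CPM in A/J Vegan livers and 238 and 257 CPM in A/J American livers, while in DBA/2J it had 1050 and 472 CPM in Vegan livers and 856 and 1050 CPM in American livers. Mup genes are near copies that share reads.

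Within single strains, 2 livers against 2, edgeR called 36 genes in DBA/2J (0.193%), 11 higher (0.059%) and 25 lower (0.134%), and 4 in A/J (0.0215%), all lower. The A/J genes were Mup21, Col25a1, Gapdhrt and Fmn2. No gene passed in both A/J and DBA/2J. None passed in C57BL/6J, where 294 genes (1.58%) had an unadjusted p under 0.05 and DESeq2 called 0, and none in SJL, where 1019 genes (5.47%) did and DESeq2 called 9. Without the near-identical pair the counts were 32 in DBA/2J, 4 in A/J, 2 in C57BL/6J and 0 in SJL. The DBA/2J count changed to 513 without Vegan mouse 48, 12 without Vegan mouse 45, 4 without American mouse 33 and 1 without American mouse 34. Vegan mice 45 and 48 had log2 ratios of the clock genes Dbp to Bmal1 of -1.92 and 3.3. Whether the ratio has a part in these counts was not tested. Among the DBA/2J genes, Gramd1c, a sterol transfer protein, had 20.4 and 24.8 CPM in Vegan livers and 43.5 and 46.9 CPM in American livers (adjusted p = 0.0495, edgeR).

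**Figure D4:**
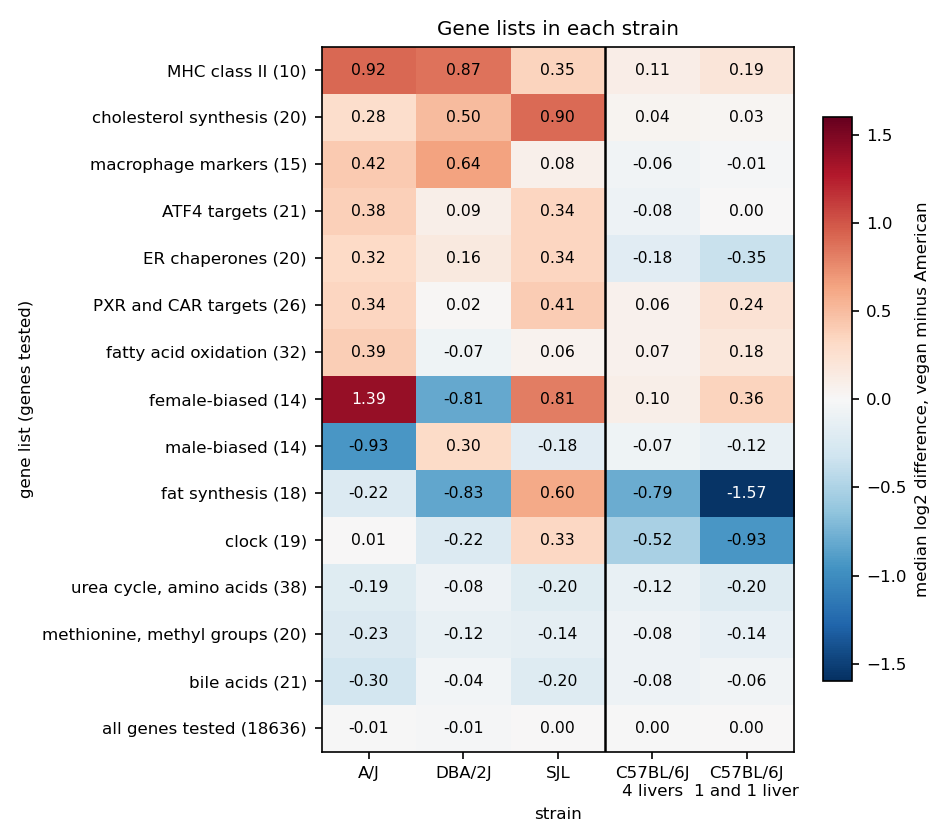
Median log2 difference, Vegan minus American, of each gene list (rows, with the number of genes tested) in each strain (columns), with C57BL/6J from all 4 livers and from Vegan mouse 13 against American mouse 2. Cholesterol synthesis and MHC class II genes are above 0 in every column, fat synthesis and female-biased genes change sign between strains, and the medians over all genes tested are near 0.

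Other lists differed in direction between strains. The 18 fat synthesis genes had median log2 differences of -0.22 in A/J, -0.83 in DBA/2J, 0.60 in SJL and -0.79 in C57BL/6J, and -0.33 over all strains (-0.38 without the near-identical pair). In C57BL/6J, Vegan mouse 13 against American mouse 2 gave -1.57. None passed, and 1 of the 18 had an unadjusted p under 0.05, where 12.5% of all genes did. Scd1, the stearoyl-CoA desaturase, had a median of 2284 CPM in Vegan livers and 4937 CPM in American livers with wide overlap (adjusted p = 0.397, edgeR; 0.349 without the pair). Female-biased liver genes had medians of 1.39 in A/J, -0.81 in DBA/2J and 0.81 in SJL, and male-biased genes -0.93, 0.30 and -0.18 in these strains. Over all strains the medians were 0.52 for the female-biased list (0.57 without the pair) and -0.23 for the male-biased list (-0.26 without the pair). Of 14 female-biased genes 7, and of 14 male-biased genes 6, had an unadjusted p under 0.05 for a difference between strains, where 4.12% of all genes did. All mice were male. None of the 14 female-biased genes passed with all livers. Without the near-identical pair 3 of them passed, all higher (0.172% of all genes). Cyp39a1, an oxysterol hydroxylase, was 1 of these (adjusted p = 0.0258, edgeR), with 1.35 to 39.1 CPM in Vegan livers and 0.795 to 13.4 CPM in American livers. The others were Cyp3a16 and Cyp3a41a, already counted above among the PXR and CAR targets. Both were at low levels in most livers, and the difference in Cyp3a41a rested on Vegan DBA/2J mouse 45.

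Clock genes varied between livers of the same diet, and the labels give no harvest time. Of 19 clock genes 9 had a higher and 10 a lower mean on the Vegan diet. Their median log2 difference was 0.005 (-0.016 without the near-identical pair). None passed, and 1 had an unadjusted p under 0.05, where 12.5% of all genes did. The log2 ratio of Dbp, a clock output gene that peaks by day in mouse liver, to Bmal1, a core clock gene of opposite phase, was -2.35 and 2.77 in C57BL/6J Vegan livers, -2.03 and -2.57 in A/J, -1.92 and 3.3 in DBA/2J, and 2.84 and 4.79 in SJL. American livers had 3.27 and 0.71 in C57BL/6J, -4.27 and -4.26 in A/J, 1.11 and 1.68 in DBA/2J, and 1.53 and 1.35 in SJL. The A/J livers were low on both diets, and Vegan mice 13 and 45 were low beside the other Vegan and American livers of their strains. The same 2 livers had the lowest fat synthesis list medians of these 16 livers relative to their strain's American mean, at -1.23 and -1.24. A/J Vegan mice 30 and 32, with ratios of -2.03 and -2.57, had -0.204 and -0.069. DBA/2J Vegan mouse 48, with a ratio of 3.3, had -0.355. Whether the ratio and the fat synthesis genes are linked was not tested. With the ratio as a covariate, an alternative chosen after seeing the data, 33 genes passed for diet and 20 of the 21 were among them, and the median of the cholesterol synthesis list was 0.37. That of the fat synthesis list was -0.42 with the ratio and -0.33 without it.

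**Figure D5:**
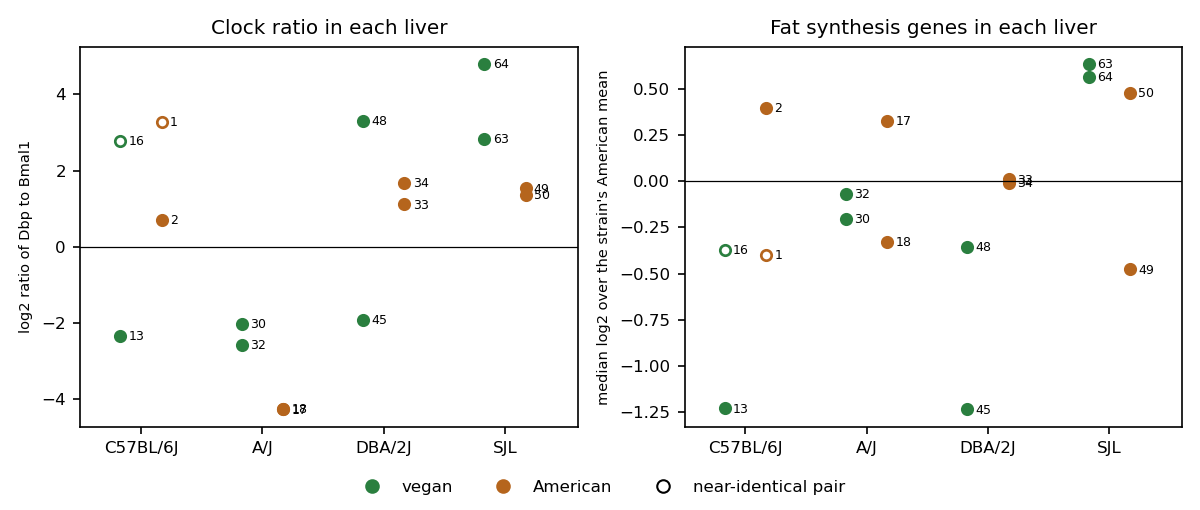
Log2 ratio of Dbp to Bmal1 (left) and median log2 level of the 18 fat synthesis genes relative to the American mean of the strain (right) in each liver, with Vegan livers in green, American livers in brown, mouse numbers beside the points and open circles for the near-identical pair. Vegan mice 13 and 45 are low in both panels, while A/J Vegan mice 30 and 32 are low on the left and nearer 0 on the right.

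No gene of the lists for stress and fatty acid oxidation passed the test. Of 20 endoplasmic reticulum chaperones 18 had a higher mean, with median log2 differences of 0.32 in A/J, 0.16 in DBA/2J, 0.34 in SJL and -0.18 in C57BL/6J. In C57BL/6J, Vegan mouse 13 against American mouse 2 gave -0.353. An unadjusted p under 0.05 was found for 5 chaperones, all in the higher direction (6.64% of all genes, and 12.5% in either direction). Over all strains the median was 0.21 (0.24 without the near-identical pair). Herpud1, of protein degradation at the endoplasmic reticulum, had medians of 364 CPM in Vegan livers and 182 CPM in American livers (adjusted p = 0.32, edgeR; 0.242 without the pair). Targets of ATF4, the factor that answers amino acid shortage, had a higher mean in 18 of 21 cases and a median of 0.22 (0.27 without the pair), where 48.3% of all genes had a higher mean. Of these 21, 5 were higher in all 4 strains (10.4% of all genes) and 3 had an unadjusted p under 0.05. That was near the 12.5% of all genes in either direction and above the 6.64% in the higher direction, where all 3 lay. The 32 genes of fatty acid oxidation had a median of 0.11 (0.12 without the pair), with 25 higher in mean and 3 at an unadjusted p under 0.05. That was under the 12.5% of all genes in either direction and above the 6.64% in the higher direction, where all 3 lay.

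Markers of antigen-presenting cells and macrophages were higher in mean, and none passed over the strains, with 2 of 10 and 6 of 15 at an unadjusted p under 0.05 in the higher direction, where 6.64% of all genes were. The median log2 difference over all strains was 0.62 for MHC class II (0.68 without the near-identical pair) and 0.26 for macrophages (0.28 without it). Of 10 MHC class II genes 9 were higher in each of A/J, DBA/2J and SJL, where 19.0% of all genes were. Their median log2 differences were 0.92, 0.87 and 0.35 in these strains and 0.11 in C57BL/6J (0.19 for Vegan mouse 13 against American mouse 2). H2-Aa, an antigen-presenting chain, had 29.1 to 65.6 CPM in Vegan livers (median 39.9) and 13.2 to 33.7 CPM in American livers (median 25.4) and did not pass (adjusted p = 0.432, edgeR; 0.361 without the pair). Of 15 macrophage and Kupffer cell markers 14 had a higher mean, with a summed level of 707 to 1023 CPM in Vegan livers and 478 to 931 CPM in American livers. By strain their median log2 differences were 0.42 in A/J, 0.64 in DBA/2J, 0.08 in SJL and -0.06 in C57BL/6J. In the same order 13, 14, 10 and 7 of the 15 markers were higher. C1qb, a complement subunit made by Kupffer cells, passed within DBA/2J, where Vegan livers had 72.5 and 48.7 CPM and American livers 34.7 and 26.2 CPM (adjusted p = 0.0478), and not over the strains (adjusted p = 0.181; 0.123 without the pair). Neutrophil markers summed to at most 4.56 CPM in Vegan livers and 5.72 CPM in American livers, and T cell markers to at most 14.3 CPM and 17.9 CPM. A higher mean was not particular to macrophages. It was found for 8 of 12 T cell markers (median log2 difference 0.26, and 0.25 without the pair) and 5 of 6 neutrophil markers (0.24 and 0.37). The same held for 9 of 11 B cell markers (0.13 and 0.20) and 8 of 9 liver endothelium markers (0.16 and 0.19), where 48.3% of all genes had a higher mean. None of these passed, and 3 endothelium markers had an unadjusted p under 0.05, all higher, where 6.64% of all genes were. The part of these cells in the other results was not tested.

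Cyp3a11 had the highest mean of the 4 diets in Vegan livers. It was at 4288 ± 1535 CPM in Vegan livers, 2604 ± 975 CPM in Mediterranean livers, 3407 ± 467 CPM in vegetarian livers and 2134 ± 355 CPM in American livers (SD, n = 8 each). Spns2 averaged 24.8 ± 4.5 CPM in Vegan, 27.4 ± 3.4 CPM in Mediterranean, 30.9 ± 6.7 CPM in vegetarian and 37.8 ± 4.4 CPM in American livers. Cyp51 averaged 165 ± 43.5 CPM, 125 ± 35.8 CPM, 145 ± 38.2 CPM and 103 ± 18.1 CPM in Vegan, Mediterranean, vegetarian and American livers. No gene passed with edgeR when Vegan livers were set against Mediterranean livers, where 890 genes (4.78%) had an unadjusted p under 0.05 and DESeq2 called 1, or against vegetarian livers, where 1421 genes (7.63%) did and DESeq2 called 12. These comparisons use the same Vegan livers as the comparison with the American diet, so they are not independent of it.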

How the data were processed

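PolyA RNA of each liver was sequenced from stranded libraries. Per the series' design text and the submitters' processing notes, the authors used FastQC, Trim Galore, HISAT2 on GRCm39 (with a relaxed mismatch penalty outside C57BL/6J) and HTSeq per gene. No source read for this work gives their versions or the strand setting. The deposited estimated counts are fractional, since a read with several positions was shared among them, and were rounded. The deposited TPM values, normalised by the authors for length and depth, served as an alternative. Names came from GENCODE (GRCm39).

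All 32 livers were fitted in edgeR 4.0.16 (R 4.3.3) with TMM scaling, filterByExpr (minimum count 10) and glmQLFit with robust estimates, on strain and diet; a model with 16 strain and diet means gave the values within strains and their interaction. Adjustment was Benjamini-Hochberg over 18636 genes at 0.05. CPM values are TMM-scaled, except sums over lists, which are unscaled. Values by strain are differences of mean log2 CPM (prior count 2), and list medians over all strains are of the edgeR estimates. Alternatives used DESeq2 1.42.0 and limma 3.58.1. The scripts were tested on simulated counts. Named genes were those that passed, the members of each list with the smallest p (up to 4), the interaction genes with the smallest p, the largest called changes per strain and the largest separated changes, with at least 5 CPM for the last 3; others were named after their values were seen, among them genes that passed without the near-identical pair. A gene that this rule names within DBA/2J is not reported here. The members and lists were chosen with earlier results of these data known.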

Additional observations from a re-analysis of the deposited data

Results flagged for a closer look

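In 22 of 222 groups of 8 livers (9.91%), for genes named here or listed in the pathways, 1 liver stood further from the rest than a check for stray values allows. Chance gives about 1 in 20 where all livers of a group share 1 level. Each group of 8 here pools 4 strains, so that share does not apply directly, and a level particular to a strain can set a liver apart, as for A4gnt, which was above 0.637 in DBA/2J livers only. Values are CPM, each with the next liver of its diet.

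Among Vegan livers, DBA/2J mouse 45 was highest for Cyp3a41a (9.99, next 0.64), Eif4ebp1, a translation repressor (68.5, next 45.7), Fth1, the ferritin heavy chain (1990, next 1370), and Map1lc3a, an autophagosome protein (62.4, next 39.7). DBA/2J mouse 48 was highest for A4gnt (4.52, next 1.26) and Dmgdh (676, next 497) and lowest for Gckr, the glucokinase regulator (118, next 191). A/J mouse 32 was highest for Herpud1 (991, next 500), Cyp3a44 (19.1, next 9.08) and Map1lc3b (150, next 111). A/J mouse 30 was highest for H2-Aa (65.6, next 45.2) and Serpina3g, a protease inhibitor (16.8, next 8.63). C57BL/6J mouse 13 was highest for Maoa (15.4, next 9.7) and Cyp39a1 (39.1, next 17.4). C57BL/6J mouse 16 of the near-identical pair was highest for Spns2 (35.6, next 25.2), a level inside the American range.

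Among American livers, C57BL/6J mouse 1 of the near-identical pair was highest for mt-Td (0.364, next 0.0412), mt-Co3, a mitochondrial oxidase subunit (256, next 84.4), and Map1lc3a (34.1, next 26.3). DBA/2J mouse 34 was lowest for Cd74, the MHC class II invariant chain (31.9, next 63.7), and highest for Trim24, a transcription cofactor (22.8, next 14.5). A/J mouse 18 was highest for Acot1, an acyl-CoA thioesterase (34.1, next 19.1). SJL mouse 50 was highest for Niban2 (95.8, next 40.6). What sets these livers apart was not tested.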

How the results depend on the processing

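No result changed direction past the test in any alternative. The 21 genes were 21 with RLE size factors and 20 with no filter on low counts. They became 116 with DESeq2, 55 with the 16 Vegan and American livers alone, 51 with a 16-mean model averaged over strains, and 7, 7 and 1 with limma on log2 of TPM plus 1, TPM plus 0.1 and TPM plus 1 unfiltered. Alternatives chosen after seeing the data gave 101 without the near-identical pair, 33 with the clock ratio as a covariate and 9 with the older quasi-likelihood method.

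Leaving out 1 liver gave 4 to 169 genes. The count was 169 without C57BL/6J Vegan mouse 16, 43 without C57BL/6J Vegan mouse 13, 13 without DBA/2J Vegan mouse 48, 11 without DBA/2J Vegan mouse 45 and without SJL Vegan mouse 64, 10 without A/J Vegan mouse 30, 7 without C57BL/6J American mouse 2 and 4 without DBA/2J American mouse 34. Fmn2, Tmed6, Cyp2c53-ps and ENSMUSG00000093610 passed in all 16 such fits, Cyp3a11 in 15, Spns2 and Agxt2 in 13, and Vegfb and Maoa in 5. Appl1 and Adarb2 passed in 4.

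The interaction count of 0 was 5 with DESeq2 and 0 to 4 with 1 liver left out, 4 being without DBA/2J Vegan mouse 48. Against Mediterranean livers DESeq2 gave 1, and against vegetarian livers DESeq2 gave 12 and leaving out the pair gave 1. Within DBA/2J the 36 became 123 with DESeq2, 115 with the 16 livers alone, 2 with the older method and 1 to 513 with 1 liver left out. Within A/J the 4 became 49 with DESeq2, 7 with no filter and 7 with the 16 livers alone, and 2 to 4 with 1 liver left out, 2 being without Vegan mouse 30 or American mouse 18. Within SJL the 0 became 9 with DESeq2, 2 with no filter and 0 to 1 with 1 liver left out. Within C57BL/6J it became 2 without the pair, where 1 liver was set against 1 with the spread taken from the other groups, and 0 to 1 with 1 liver left out. Restricting to A/J, DBA/2J and SJL moved the share of 1 sign to 39.1% and the separated share to 4.84%, since fewer strains must agree.

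The PXR and CAR median, 0.26 as a difference of mean log2 CPM, was 0.11 on log2 of TPM plus 1 and 0.13 to 0.28 with 1 liver left out, the lowest without DBA/2J Vegan mouse 45. The iron list median of 0.05 ranged from 0.031 to 0.107. Apart from the settings whose construction is given, the cause was not tested. No paired analysis was possible because mice of the 2 diets share no numbers. With 2 mice per strain and diet, effects within a strain are the least precise values given.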

Other observations

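The lysosome, autophagy and mitochondrial genome lists were chosen after their values were seen and are given as values. Of 24 lysosome genes 19 had a higher mean in Vegan livers, and 15 were higher in each of A/J, DBA/2J and SJL, where 19.0% of all genes tested were. Their median log2 difference was 0.15 (0.18 without the near-identical pair) and none passed. Gaa, the lysosomal glycogen-digesting enzyme, had medians of 84.1 CPM in Vegan livers and 67.2 CPM in American livers. It was separated within every strain, by a narrow margin in C57BL/6J (adjusted p = 0.212, edgeR). Of 15 autophagy genes 12 had a higher mean, where 48.3% of all genes did. Map1lc3a, a protein of the autophagosome membrane, had 28.5 to 62.4 CPM in Vegan livers (median 36.0) and 21.9 to 34.1 CPM in American livers (median 24.4). It was separated within every strain, by a narrow margin in C57BL/6J, and passed without the pair (adjusted p = 0.038, edgeR; 0.0729 with all livers).

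Of the 13 protein genes of the mitochondrial genome 7 had a lower mean in Vegan livers, near the 51.7% of all genes. Their sum was 26260 to 58360 CPM in Vegan livers and 44740 to 61100 CPM in American livers. The list median was -0.59 in A/J, 0.34 in DBA/2J, -0.11 in SJL and -0.01 in C57BL/6J. Slco2a1, a prostaglandin transporter outside the lists, was separated within every strain, with medians of 78.8 CPM in Vegan livers and 52.2 CPM in American livers, and passed without the pair (adjusted p = 0.0258; 0.0527 with all livers). Adgrv1, an adhesion receptor, had 1.99 to 36.5 CPM in Vegan livers and 8.97 to 97.8 CPM in American livers, was separated within every strain and passed without the pair (adjusted p = 0.018; 0.0788 with all livers).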
